A study of Mus musculus with 8 samples.

Results

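The genes described here are 44 genes of antioxidant defence and of the NRF2 pathway, taken by symbol from the 12551 genes counted in tibialis anterior (TA) muscle of wild-type (WT) and Klotho-null (KL-/-) mice, and all 44 were found. RNA came from whole TA muscles, snap frozen, of 4 male WT (Klotho wt/wt) and 4 male KL-/- (Klotho null/null) littermates at 7 weeks of age, bred from heterozygous mice on a mixed background. The deletion is systemic, so effects of Klotho lost from muscle and from the rest of the body cannot be told apart in these mice. *Kl* is not among the 12551 genes, so the counts analysed here hold no check of the genotypes, which the study determined by PCR. Library totals were 20860262 to 26501093 counts on genes in WT and 22061526 to 29273758 in KL-/- muscles, the labels date KL-/- replicate 3 to another batch than the remaining 7, and no 2 libraries of a genotype were duplicates. The labelled tissue was checked against 11 skeletal muscle fibre genes, which together took 165181 to 187882 CPM (counts scaled to a common library total) in WT and 195389 to 243136 CPM in KL-/- libraries. Their genotypes did not overlap.

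Muscle fibres make superoxide and hydrogen peroxide when they contract and respire. Superoxide dismutases turn superoxide into hydrogen peroxide, which catalase, glutathione peroxidases and peroxiredoxins remove, the peroxidases with electrons from glutathione and most peroxiredoxins with electrons from thioredoxin. The transcription factor NRF2, encoded by *Nfe2l2*, is held at low levels by KEAP1, an adaptor that passes it to a CUL3 ubiquitin ligase. When KEAP1 is oxidized, NRF2 persists, pairs with small MAF proteins on antioxidant response elements (AREs) and raises genes of glutathione synthesis, thioredoxin reduction and detoxification.

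Most of these genes did not pass the test between genotypes. Of the 44, 5 passed a false discovery rate (FDR) of 0.05 over all genes (edgeR's quasi-likelihood test with Benjamini-Hochberg adjustment): *Gstm1*, *Gstm5* and *Keap1* were higher in KL-/- muscle, and *Mgst1* and *Hmox1* were lower. That is 11.4% of the 44, where 14.0% of all genes tested passed. By direction, 3 of the 44 were higher and 2 of the 44 lower, where 7.35% of all genes were higher and 6.67% lower. In 8 of the 44 (18.2%) all 4 KL-/- libraries lay on one side of all 4 WT libraries, against 19.7% of all genes, so neither share stood above its background. KL-/- libraries were the higher ones for 5 of the 44, against 10.2% of all genes, and the lower ones for 3 of the 44, against 9.47%. The 44 log2 fold changes (KL-/- over WT) had a median of -0.0098, the median over all genes was -0.016, and 21 were positive and 23 negative. At an unadjusted p under 0.05, 12 of the 44 passed, and 32.1% of all genes did. Calls depended on the scaling: trimmed mean of M-values (TMM) factors were used here, and when libraries were scaled by their totals instead, the median over all genes moved to -0.13, and 11 of the 44 passed, 3 higher and 8 lower. Of all genes called, 52.4% were higher with TMM factors and 18.8% with totals. Without KL-/- replicate 3, so within 1 batch date, *Gstm1*, *Gstm5*, *Keap1* and *Mgst1* passed and *Hmox1* did not (edgeR quasi-likelihood FDR = 0.116).

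**Figure D1:**
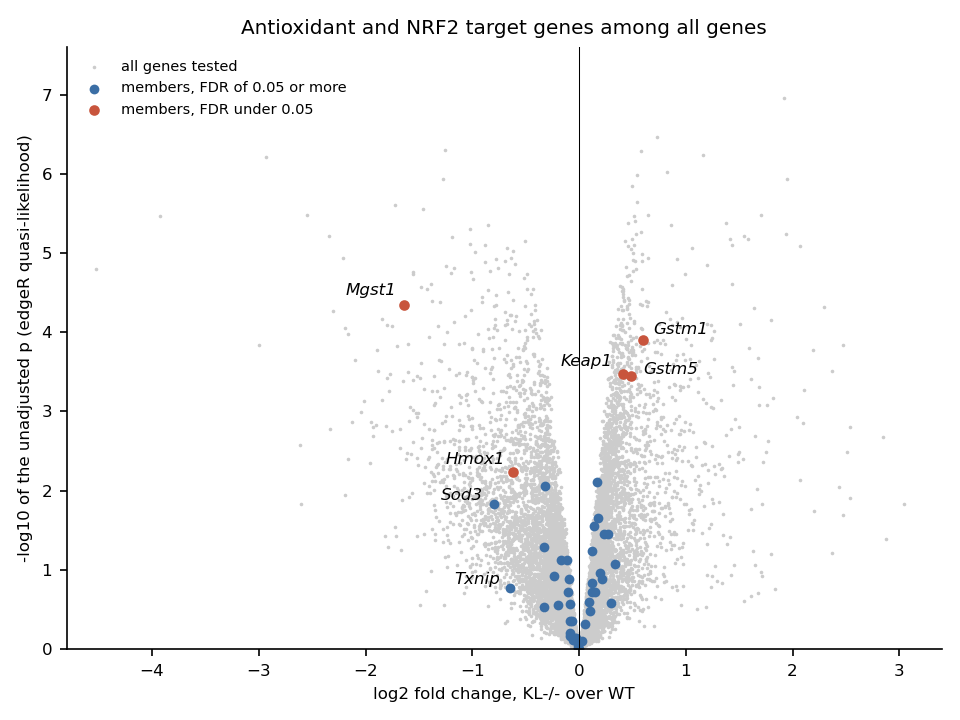
Each point is 1 gene, with its log2 fold change (KL-/- over WT) on the x axis and -log10 of its unadjusted p from edgeR's quasi-likelihood test on the y axis. Grey points are the 12551 genes tested, blue points the members with an FDR of 0.05 or more and red points the 5 members below it. Most members sit near 0, and *Mgst1* stands farthest from it at -1.64.

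For 26 of the 44, the 95% interval of the log2 fold change lay within 0.5 of 0 in both directions, and for 40 it lay within 1. The called changes of *Keap1* (0.41) and *Gstm5* (0.49) are themselves below 0.5, so that bound does not exclude changes of their size. The share of all genes within the same bounds was not counted. These counts depend on the size of a change as well as on its precision. *Keap1*, with a narrow interval of 0.24 to 0.58, is not among the 26. The 4 intervals that reached past a log2 fold change of 1 were those of *Sod3*, *Txnip*, *Mgst1* and *Hmox1*. The median coefficient of variation of the members was 9.19% among WT and 10.3% among KL-/- libraries, against 9.85% and 11.1% over all genes. No member was near the detection limit: the lowest value in any library was 3.05 CPM, where 3 counts are worth at most 0.144 CPM.

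**Figure D2:**
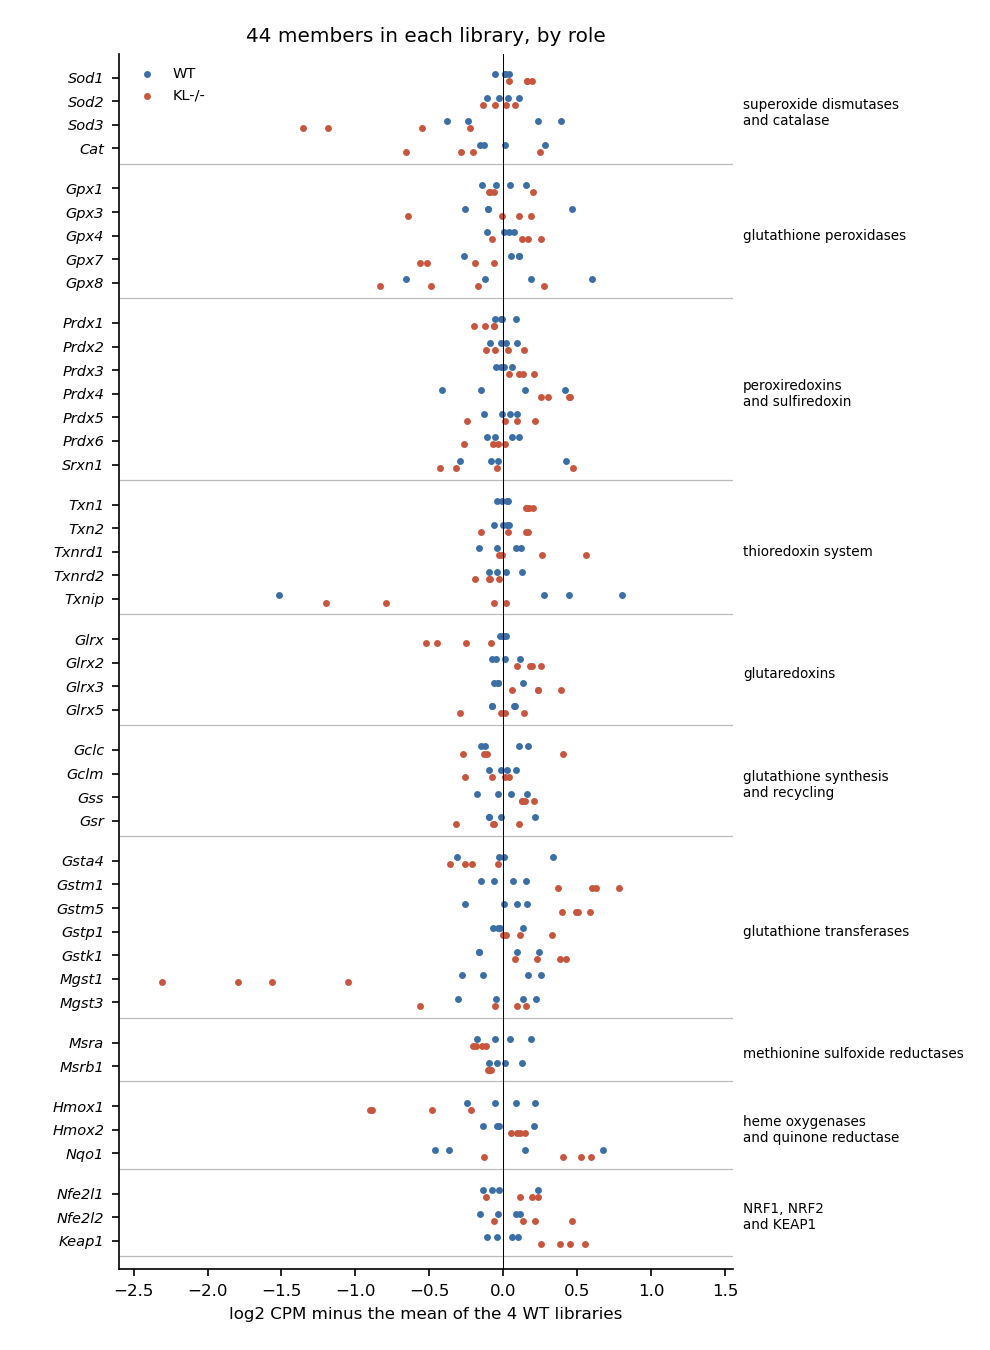
Each row is 1 member, and each point is 1 library, as log2 CPM minus the mean of the 4 WT libraries, with WT in blue and KL-/- in red and the members ordered by role. *Mgst1* has all 4 red points below -1, whereas *Txnip* has 1 WT library, replicate 4, below every KL-/- library.

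Among glutathione transferases, which attach glutathione to reactive compounds, *Gstm1* and *Gstm5* of the cytosolic mu class rose and the membrane enzyme *Mgst1* fell. *Gstm1* (chr3:108012250-108017973 of mm10) was at 109, 103, 93.8 and 88.3 CPM in WT replicates 1 to 4 and at 149, 127, 169 and 151 CPM in KL-/- replicates 1 to 4. The genotypes did not overlap, and the log2 fold change was 0.60 (standard error [SE] 0.097, edgeR quasi-likelihood FDR = 0.00708), or 51.4% more. *Gstm5* (chr3:107895854-107898685) was at 49.8, 47.5, 37.1 and 44.6 CPM in WT and at 62.5, 58.7, 66.8 and 63.1 CPM in KL-/- muscle. It too was higher in every KL-/- library, by a log2 fold change of 0.49 (SE 0.091, edgeR quasi-likelihood FDR = 0.0109). Both kept an FDR under 0.05 in all 15 alternative fits. Among these 15, here and below, the fit without the low-count filter repeats the main fit, because that filter removed no gene.

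*Gstm1* and *Gstm5* lie in a cluster of mu-class genes on chromosome 3, of which 5 are among the counted genes. The family was looked at after the values of these members had been seen. *Gstm2*, a neighbour that is not one of the 44, was at 31.6 to 36.5 CPM in WT and 54.9 to 65.9 CPM in KL-/- libraries (log2 fold change 0.82, SE 0.075, edgeR quasi-likelihood FDR = 0.00148). *Gstm4* had a log2 fold change of -0.052 (FDR = 0.675 from the same test) and *Gstm7* of 0.29 (FDR = 0.243), and neither passed in any of the alternative fits. All 5 kept their sign in all 15 alternative fits. The 5 genes summed to 180 to 212 CPM in WT and to 256 to 317 CPM in KL-/- muscle, and *Gstm1* took 49.0% to 52.2% of the sum in WT and 49.5% to 53.5% in KL-/- libraries. Reads can be shared within this family: 18.9% of the 50-base words of *Gstm1* transcripts and 5.65% of those of *Gstm2* recur in transcripts of another gene, whereas none of those of *Gstm5* do. *Gstm5* overlaps an antisense gene instead, *4933431E20Rik*, which had its own counts and a log2 fold change of -0.12 (FDR = 0.673), and whether reads were counted by strand is not given in the sources used here.

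*Mgst1*, a glutathione transferase and peroxidase of the endoplasmic reticulum and outer mitochondrial membrane, had the largest change of the 44. It was at 39.6, 32.0, 29.1 and 42.1 CPM in WT replicates 1 to 4 and at 11.9, 17.0, 10.1 and 7.05 CPM in KL-/- replicates 1 to 4 (*Mgst1*, chr6:138140537-138156752). The highest KL-/- library lay well below the lowest WT library. The log2 fold change was -1.64 (SE 0.23, edgeR quasi-likelihood FDR = 0.00485), so that the WT level was 3.11 times the KL-/- level, and it ranged from -1.87 to -1.46 with each library left out in turn. It passed in all 15 alternative fits. Its relative *Mgst3*, the second most abundant member per length, was at 108 to 156 CPM in WT and 90.1 to 149 CPM in KL-/- libraries and did not pass (log2 fold change -0.083, 95% interval -0.44 to 0.28).

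The other 3 transferases did not pass. *Gstk1*, the kappa-class enzyme of mitochondria and peroxisomes, had a log2 fold change of 0.28 (edgeR quasi-likelihood FDR = 0.127), *Gstp1* of 0.12 (FDR = 0.354) and *Gsta4*, which clears the lipid peroxidation product 4-hydroxynonenal, of -0.24 (FDR = 0.265). Of the 50-base words of *Gstp1*, 33.7% recur in other genes, its neighbour *Gstp2* first among them, so its counts are uncertain.

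**Figure D3:**
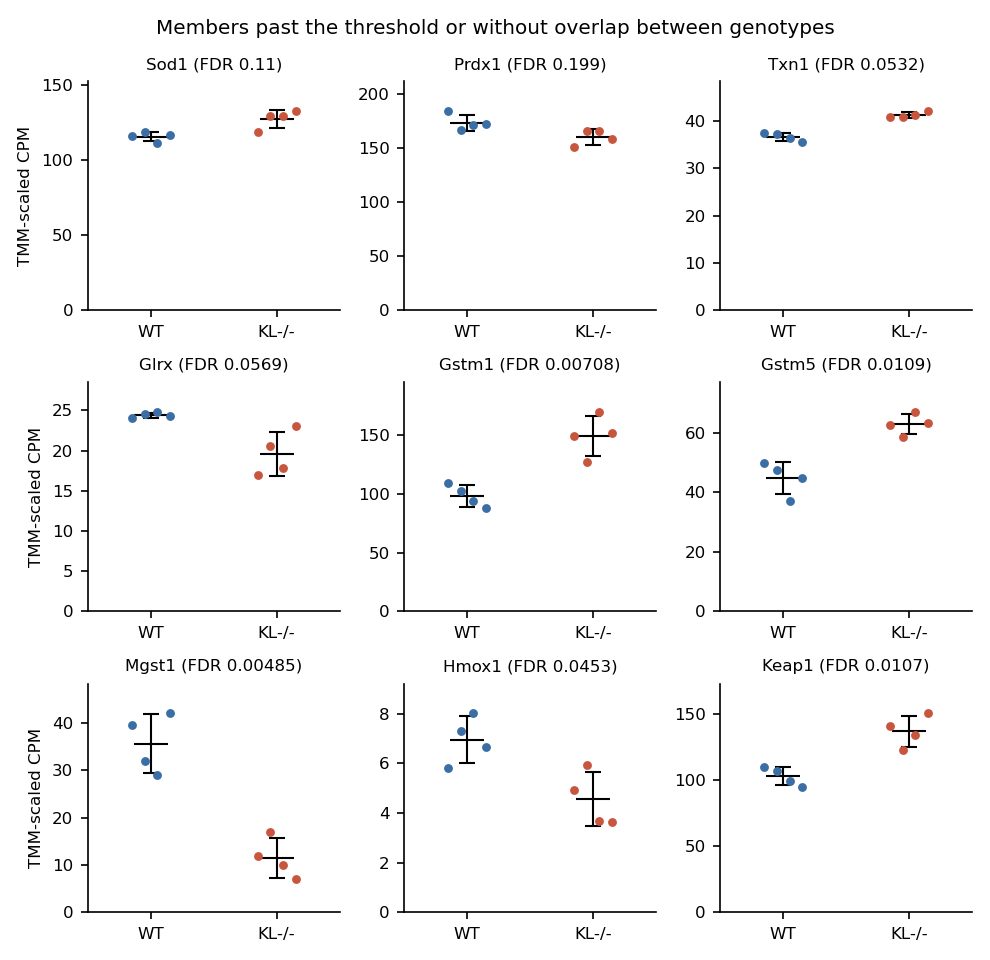
Points are TMM-scaled CPM of single libraries, replicates 1 to 4 from left to right, and black bars are the mean and SD of 4 libraries, for the 8 members without overlap between genotypes and for *Hmox1*. *Mgst1* is at 29.1 CPM or more in WT and 17.0 CPM or less in KL-/- muscle, whereas *Sod1* and *Prdx1* are separated by less than 1 CPM.

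*Keap1*, the negative regulator of NRF2, was higher in KL-/- muscle. It was at 110, 107, 99.5 and 95 CPM in WT replicates 1 to 4 and at 141, 123, 134 and 150 CPM in KL-/- replicates 1 to 4 (*Keap1*, chr9:21229730-21239332). The genotypes did not overlap. The log2 fold change was 0.41 (SE 0.076, edgeR quasi-likelihood FDR = 0.0107), or 33.1% more, and it passed in all 15 alternative fits. *Keap1* overlaps an antisense gene, *Gm16754*, on the other strand. *Nfe2l2* itself was at 40.3 to 48.7 CPM in WT and 43.0 to 62.2 CPM in KL-/- libraries. Its genotypes overlapped, and its log2 fold change was 0.20 (95% interval -0.053 to 0.44, edgeR quasi-likelihood FDR = 0.251). *Nfe2l1*, which encodes the related factor NRF1, was at 712 to 921 CPM in WT and 722 to 920 CPM in KL-/- libraries, with a log2 fold change of 0.11 (FDR = 0.514).

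Of 15 counted genes for partners and control of KEAP1 and NRF2, out of 17 listed, 2 were higher and 0 lower, or 13.3% called against 14.0% of all genes. *Mafk*, a small MAF partner of NRF2, had a log2 fold change of 0.61 (edgeR quasi-likelihood FDR = 0.0351) and *Cul3*, the scaffold of the ligase that takes KEAP1 as its adaptor, of 0.31 (FDR = 0.0424). Their calls were less firm than that of *Keap1*. *Mafk* passed in 7 and *Cul3* in 6 of 15 alternative fits, and when scaled by library totals they had an FDR of 0.0616 and 0.121. The repressor gene *Bach1* and the other 12 did not pass.

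Promoters of the changed members were read to show where AREs could lie. RefSeq windows of 300 bases (GRCm38.p6, which is mm10), from 250 bases before a gene's start to 50 after it, were found for 37 of the 44 genes, and those of *Hmox1*, *Gclc*, *Gsr*, *Sod3*, *Prdx6*, *Gsta4* and *Msra* were not read. The ARE core TGACNNNGC, on either strand, was in at least 1 window of 8 of the 37 genes (21.6%), against 14.0% of the 27025 genes with a window, and in 14.8% of the members' 54 windows against 12.4% of all 32851 windows. The 8 were *Gclm*, *Gstm5*, *Mgst1*, *Nfe2l2*, *Prdx1*, *Sod1*, *Srxn1* and *Txnrd1*. The stricter form TGACTCAGC, which also holds the core, was in 1 of the 37, *Prdx1*, and in 0.503% of all genes. Printed below is 1 window each of the 4 changed members that had any and of *Prdx1*, whose expression did not pass. *Mgst1* and *Gstm1* each had another window that is not printed. Letters run 5′ to 3′ along each gene, in lower case with core matches in capitals.
Gstm5 (chr3:107895604-107895903, + strand): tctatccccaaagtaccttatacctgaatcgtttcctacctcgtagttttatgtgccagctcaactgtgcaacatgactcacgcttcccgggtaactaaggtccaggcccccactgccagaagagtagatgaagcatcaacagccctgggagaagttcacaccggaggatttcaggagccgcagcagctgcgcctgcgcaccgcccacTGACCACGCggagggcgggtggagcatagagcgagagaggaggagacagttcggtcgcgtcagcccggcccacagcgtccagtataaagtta
Mgst1 (chr6:138140277-138140576, + strand): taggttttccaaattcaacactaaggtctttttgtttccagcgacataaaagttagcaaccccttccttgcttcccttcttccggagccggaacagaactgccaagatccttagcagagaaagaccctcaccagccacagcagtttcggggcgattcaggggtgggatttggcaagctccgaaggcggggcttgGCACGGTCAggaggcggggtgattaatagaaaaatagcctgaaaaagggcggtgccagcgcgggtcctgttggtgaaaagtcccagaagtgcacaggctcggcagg
Prdx1 (chr4:116685349-116685648, + strand): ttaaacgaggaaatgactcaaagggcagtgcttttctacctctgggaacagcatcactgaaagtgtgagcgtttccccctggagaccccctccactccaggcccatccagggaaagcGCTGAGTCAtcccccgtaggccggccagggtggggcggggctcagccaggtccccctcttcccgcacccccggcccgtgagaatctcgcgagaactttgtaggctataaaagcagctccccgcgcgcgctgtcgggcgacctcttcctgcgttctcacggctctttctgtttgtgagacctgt
Gstm1 (chr3:108017924-108018223, - strand): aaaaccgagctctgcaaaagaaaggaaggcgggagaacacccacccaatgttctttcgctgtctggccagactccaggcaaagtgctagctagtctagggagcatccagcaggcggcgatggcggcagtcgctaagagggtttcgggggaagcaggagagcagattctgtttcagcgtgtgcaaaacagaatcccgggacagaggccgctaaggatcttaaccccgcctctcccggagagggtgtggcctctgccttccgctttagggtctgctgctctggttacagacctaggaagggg
Keap1 (chr9:21239283-21239582, - strand): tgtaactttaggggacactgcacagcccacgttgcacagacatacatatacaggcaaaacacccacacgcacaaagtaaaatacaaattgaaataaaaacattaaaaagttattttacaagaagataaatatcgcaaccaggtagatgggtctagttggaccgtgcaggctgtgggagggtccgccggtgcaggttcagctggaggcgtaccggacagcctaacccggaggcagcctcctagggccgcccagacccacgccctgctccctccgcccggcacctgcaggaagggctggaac
Of these, *Gstm5*, which rose, held TGACCACGC from position -42 relative to the start, and *Mgst1*, which fell, held TGACCGTGC on the other strand from position -56. *Prdx1* held the strict form on the other strand from position -133. No match was found in the windows printed for *Gstm1* and *Keap1*, or in the windows of *Mgst1* and *Gstm1* that are not printed. A match is a stretch of letters in this window and no measure of NRF2 binding, and elements farther from the start were not searched. Nor were spellings other than TGACNNNGC, such as tgagtcagc, which the windows of *Gstp1* and *Srxn1* hold.

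*Hmox1*, the inducible heme oxygenase and a well-known NRF2 target, was lower in KL-/- muscle. It was at 5.80, 7.31, 8.01 and 6.63 CPM in WT replicates 1 to 4 and at 4.92, 5.92, 3.69 and 3.66 CPM in KL-/- replicates 1 to 4 (*Hmox1*, chr8:75093618-75100593). KL-/- replicate 2 lay above WT replicate 1, so the genotypes overlapped. The log2 fold change was -0.62 (SE 0.17, edgeR quasi-likelihood FDR = 0.0453). The call did not hold in 7 of the 8 fits that left out 1 library, with an FDR from 0.0149 to 0.123, and of those 8 fits it passed only in the one without KL-/- replicate 2. *Hmox2*, the constitutive isoform, was at 28.7 to 36.4 CPM in WT and 32.6 to 34.9 CPM in KL-/- libraries (log2 fold change 0.095, FDR = 0.433).

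Some members that NRF2 is known to induce were grouped after their values had been seen. These 7 were *Nqo1*, *Gclc*, *Gclm*, *Srxn1*, *Txnrd1*, *Hmox1* and *Gsr*, and *Gstm1* and *Gstm5*, which rose, are not in the group. It held 0 higher calls and 1 lower, *Hmox1*, or 14.3% called against 14.0% of all genes. The genotypes overlapped in each of the 7, where 19.7% of all genes did not overlap. So few genes cannot be told apart from the background. *Nqo1*, a quinone reductase, was at 17.5, 12.3, 11.5 and 25.3 CPM in WT and at 22.7, 14.5, 23.8 and 21 CPM in KL-/- muscle (log2 fold change 0.30, edgeR quasi-likelihood FDR = 0.436). *Srxn1*, which repairs over-oxidized peroxiredoxins, was at 27.8, 24.0, 28.7 and 39.5 CPM in WT and at 40.9, 21.9, 28.6 and 23.6 CPM in KL-/- muscle (log2 fold change -0.061, FDR = 0.865). *Txnrd1*, the cytosolic thioredoxin reductase, was at 110, 101, 92.9 and 113 CPM in WT and at 153, 102, 124 and 104 CPM in KL-/- muscle (log2 fold change 0.21, FDR = 0.281). Differences between mice of a genotype were larger than those between genotypes for *Srxn1* and *Nqo1*. WT replicate 4 was the highest WT library in 5 of the 7 genes, and KL-/- replicate 1 was the highest KL-/- library in 4, while KL-/- replicate 2 was the lowest of its genotype in 5. WT replicate 4 and KL-/- replicate 1 also had the largest totals of their genotype, 26501093 and 29273758 counts, and KL-/- replicate 2 the smallest, 22061526, and the part of depth in this order was not tested.

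The 4 enzymes of glutathione synthesis and recycling did not pass in either direction. With 14.0% of all genes called, so small a group cannot be told apart from the background. *Gclc* and *Gclm*, the catalytic and modifier subunits of the rate-limiting glutamate-cysteine ligase, had log2 fold changes of -0.0071 (95% interval -0.34 to 0.33) and -0.070 (95% interval -0.26 to 0.12). *Gss*, glutathione synthetase, had a log2 fold change of 0.15 (edgeR quasi-likelihood FDR = 0.356) and overlaps *Acss2* and 2 antisense genes. *Gsr*, glutathione reductase and the most abundant of the 4 per length, was at 24.5, 25.9, 24.6 and 30.5 CPM in WT and at 25.0, 21, 28.2 and 25.1 CPM in KL-/- muscle. Its genotypes overlapped, and the log2 fold change was -0.085 (95% interval -0.32 to 0.15).

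Of 28 other NRF2-responsive genes that were counted, out of 34 listed, 5 were higher and 1 was lower, or 21.4% called against 14.0% of all genes. Over all genes, 7.35% were higher and 6.67% lower. Besides *Gstm2*, the higher genes were *Aox1*, aldehyde oxidase (log2 fold change 0.40, edgeR quasi-likelihood FDR = 0.00806), *Fth1*, the ferritin heavy chain (log2 fold change 0.39, FDR = 0.0136), *Ephx1*, the microsomal epoxide hydrolase (log2 fold change 0.48, FDR = 0.0155), and *Abcc1*, which exports glutathione conjugates (log2 fold change 0.40, FDR = 0.0202). The lower one was *Htatip2* (log2 fold change -0.82, edgeR quasi-likelihood FDR = 0.0295). *Abcc1* passed in 10 and *Htatip2* in 9 of 15 alternative fits, and *Ephx1* and *Fth1* in 14. The pentose phosphate genes *G6pdx*, *Pgd*, *Taldo1* and *Tkt*, which supply NADPH, had log2 fold changes of -0.26, -0.087, -0.069 and 0.12, and none passed.

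Superoxide dismutases and catalase held no call, where 14.0% of all genes were called, and 4 genes cannot be told apart from that share. *Sod1*, the cytosolic copper-zinc enzyme, was at 116, 119, 111 and 117 CPM in WT replicates 1 to 4 and at 119, 129, 129 and 133 CPM in KL-/- replicates 1 to 4. Every KL-/- library lay above every WT library, the closest by less than 1 CPM, and the log2 fold change of 0.14 did not pass (SE 0.054, edgeR quasi-likelihood FDR = 0.11). *Sod2*, the manganese enzyme of mitochondria, was at 392 to 454 CPM in WT and 384 to 446 CPM in KL-/- libraries, a log2 fold change of -0.026 with a 95% interval from -0.18 to 0.13. *Cat*, catalase, had a log2 fold change of -0.20 with a wider interval, -0.59 to 0.19.

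*Sod3*, the extracellular superoxide dismutase, was at 6.08, 9.34, 10.4 and 6.71 CPM in WT and at 6.76, 5.39, 3.44 and 3.05 CPM in KL-/- muscle. KL-/- replicate 1 lay within the WT range. The log2 fold change of -0.80 (SE 0.27, edgeR quasi-likelihood FDR = 0.0752) did not pass, and in 3 of 15 alternative fits it did. Grouped with it after their values were seen were *Gpx3*, *Gpx7*, *Gpx8* and *Prdx4*, peroxidases that are secreted or act in the endoplasmic reticulum. None of these 5 passed, with log2 fold changes from -0.80 to 0.33, whereas *Mgst1*, a transferase of the endoplasmic reticulum that is not in this group, did. The share called over all genes was 14.0%, from which so small a group cannot be told apart. *Prdx4*, a peroxiredoxin of the endoplasmic reticulum, was the one with a positive value, at 3.18 to 5.72 CPM in WT and 5.09 to 5.84 CPM in KL-/- libraries.

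Markers of other cells in the muscle moved in the direction of *Mgst1*, *Hmox1* and *Sod3*. All 10 listed markers of fibroblasts and fibro-adipogenic progenitors were detected, and all 10 had negative log2 fold changes with 4 past the threshold. Over all genes, 14.0% passed, 6.67% of them as lower genes. Their sum was 1716, 3755, 3886 and 1005 CPM in WT replicates 1 to 4 and 1239, 1754, 565 and 813 CPM in KL-/- replicates 1 to 4. Of 11 macrophage markers, 10 had negative log2 fold changes and 3 passed, and their sum was 76.0, 110, 143 and 67.9 CPM in WT and 84.1, 78.6, 48.3 and 49.3 CPM in KL-/- muscle. In RNA from whole muscle, fewer cells of a type and less RNA per cell cannot be told apart. *Gpx8* followed the order of the fibroblast sum within each genotype, at 5.55, 6.89, 9.19 and 3.80 CPM in WT replicates 1 to 4 and at 5.37, 7.35, 3.36 and 4.30 CPM in KL-/- replicates 1 to 4 (log2 fold change -0.32, edgeR quasi-likelihood FDR = 0.474). *Sod3* and *Hmox1* were likewise highest in WT replicates 2 and 3, where the fibroblast and macrophage sums were highest. *Mgst1* had the opposite order in WT, highest in replicates 4 and 1, whose fibroblast sums were lowest, but in KL-/- muscle it was highest in replicates 2 and 1, at 17.0 and 11.9 CPM, whose fibroblast and macrophage sums were the highest of that genotype. WT replicate 4 had a lower fibroblast sum than KL-/- replicates 1 and 2, and *Mgst1* was at 42.1 CPM in it against 11.9 and 17.0 CPM in those 2. Most of the sum came from *Col1a1*, *Col1a2* and *Col3a1*, which were lower in WT replicate 4 than in those 2. *Dcn*, *Lum*, *Dpt*, *Pi16*, *Dpp4* and *Cd34* were instead higher in it, *Dcn* at 256 against 223 and 204 CPM. *Pdgfra* lay between those 2. The part of these cells in the differences was not tested.

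**Figure D4:**
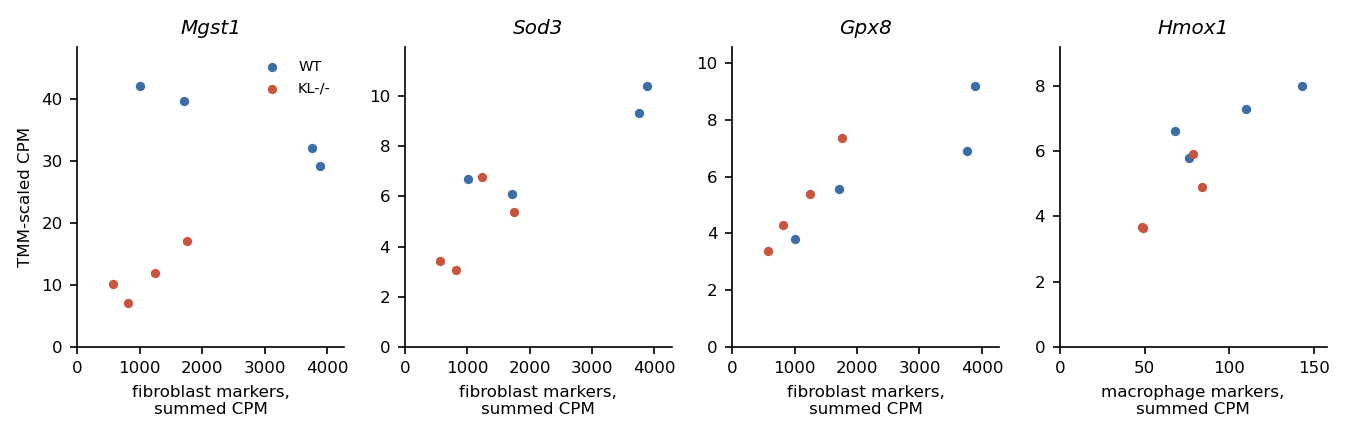
Each point is 1 library, WT in blue and KL-/- in red, with the summed CPM of fibroblast markers (first 3 panels) or macrophage markers (last panel) on the x axis and the TMM-scaled CPM of the named gene on the y axis. Within each genotype *Gpx8* is ordered as the fibroblast sum, whereas *Mgst1* splits by genotype at sums between 1005 and 1754 CPM. Most of the fibroblast sum is *Col1a1*, *Col1a2* and *Col3a1*, and other markers in it order these libraries differently.

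Of the other marker lists, endothelial genes summed to 552 to 790 CPM in WT and 530 to 563 CPM in KL-/- libraries with 1 of 8 lower, and Schwann cell genes to 52.7 to 93.8 CPM and 97.9 to 119 CPM with 3 of 6 higher. Over all genes, 7.35% were higher and 6.67% lower. Adipocyte genes summed to 185 to 216 CPM and 216 to 293 CPM with 1 of 5 detected genes higher, smooth muscle and pericyte genes to 317 to 475 CPM and 341 to 435 CPM with 1 of 6 higher, and satellite cell genes to 38.5 to 50.4 CPM and 44.8 to 52.3 CPM with 0 of 5 called. Most of the adipocyte sum was *Fabp4*, the 1 called, with means of 187 CPM in WT and 225 CPM in KL-/- libraries. *Adipoq*, *Cidec*, *Retn* and *Cfd* did not pass, and their genotypes overlapped. Of 7 erythroid markers only *Alas2* was among the counted genes, at 3.35 to 9.57 CPM in WT and 3.07 to 9.16 CPM in KL-/- libraries, and the globin genes were not.

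None of the 5 glutathione peroxidases passed, which is too few genes to set them apart from the 14.0% called over all genes. *Gpx4*, which reduces lipid peroxides in membranes and was the most abundant of them per length, was at 233, 227, 210 and 239 CPM in WT replicates 1 to 4 and at 255, 216, 271 and 248 CPM in KL-/- replicates 1 to 4. The genotypes overlapped through KL-/- replicate 2, and the log2 fold change was 0.12 (95% interval -0.052 to 0.30). Since 34.7% of its 50-base words recur in other genes, a pseudogene first among them, its level is uncertain. *Gpx1*, the main cytosolic form, had a log2 fold change of -0.012 (95% interval -0.21 to 0.19), and *Gpx3*, which is secreted into plasma, of -0.086 (95% interval -0.53 to 0.36). *Gpx7* was at -0.33 (edgeR quasi-likelihood FDR = 0.158). Together with *Txnrd1*, *Txnrd2* and *Msrb1*, 3 of these peroxidases carry selenocysteine, and of the 6 selenoproteins among the 44 none passed in either direction (log2 fold changes from -0.10 to 0.21). With 14.0% of all genes called, 6 genes are too few to set this group apart.

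Peroxiredoxins, abundant thiol peroxidases, held no call, and so few genes cannot be told apart from the 14.0% called over all genes. *Prdx2*, *Prdx3*, *Prdx5* and *Prdx6* had log2 fold changes of 0.0012, 0.12, 0.026 and -0.089, and the widest of their 95% intervals, that of *Prdx5*, ran from -0.19 to 0.24. *Prdx1* was at 184, 167, 171 and 173 CPM in WT and at 151, 166, 166 and 159 CPM in KL-/- muscle. All 4 KL-/- libraries lay below the WT libraries, by less than 1 CPM at the closest pair, and the log2 fold change of -0.11 did not pass (SE 0.057, edgeR quasi-likelihood FDR = 0.199).

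In the thioredoxin system, *Txn1*, the cytosolic electron donor of peroxiredoxins, was at 37.4, 37.1, 36.4 and 35.5 CPM in WT and at 40.8, 40.9, 41.3 and 42.0 CPM in KL-/- muscle. Its genotypes did not overlap, with 12.7% more in KL-/- muscle. The log2 fold change of 0.17 missed the threshold (SE 0.051, edgeR quasi-likelihood FDR = 0.0532) and passed in 4 of 15 alternative fits. Its mitochondrial counterparts *Txn2* and *Txnrd2* had log2 fold changes of 0.056 (95% interval -0.11 to 0.22) and -0.10 (95% interval -0.27 to 0.062). *Txnip*, which binds and inhibits thioredoxin and responds to glucose, was the most abundant member per length and the most variable. It was at 824, 926, 1191 and 239 CPM in WT replicates 1 to 4 and at 297, 654, 393 and 692 CPM in KL-/- replicates 1 to 4. WT replicate 4 was the lowest of all 8 libraries, and the log2 fold change of -0.64 had a 95% interval from -1.61 to 0.33 (edgeR quasi-likelihood FDR = 0.330).

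Glutaredoxins reduce disulfides formed with glutathione. *Glrx*, the cytosolic form, was at 24.0, 24.5, 24.7 and 24.3 CPM in WT, a coefficient of variation of 1.27%, and at 17.0, 20.5, 17.8 and 23.0 CPM in KL-/- muscle. Each KL-/- library was below the WT libraries, but the KL-/- mice spread more widely, and the log2 fold change of -0.32 did not pass (SE 0.097, edgeR quasi-likelihood FDR = 0.0569). It passed in 3 of 15 alternative fits. *Glrx2*, of mitochondria, and *Glrx3* had positive log2 fold changes of 0.18 (FDR = 0.0956) and 0.24 (FDR = 0.127), and *Glrx5*, which serves iron-sulfur cluster assembly, one of -0.033 (FDR = 0.826). The counts of *Glrx3* are uncertain, since 15.1% of its 50-base words recur in other genes. Of 6 members with a mitochondrial enzyme in the families of dismutases, peroxiredoxins, thioredoxins and glutaredoxins (*Sod2*, *Prdx3*, *Txn2*, *Txnrd2*, *Glrx2* and *Glrx5*), grouped after their values were seen, 0 passed, with log2 fold changes from -0.10 to 0.18. Over all genes 14.0% passed, and 0 of 6 cannot be told apart from that share. *Mgst1*, which is found on the outer mitochondrial membrane and did pass, and *Gstk1* are not in this group.

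The methionine sulfoxide reductases, which repair oxidized methionine, did not pass. *Msrb1*, a selenoprotein, was at 126, 136, 116 and 121 CPM in WT and at 117, 116, 116 and 118 CPM in KL-/- muscle, so that the KL-/- libraries lay close together and overlapped only with WT replicate 3. Its log2 fold change was -0.097 (95% interval -0.23 to 0.035), and that of *Msra* was -0.17 (95% interval -0.36 to 0.020).

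Of 33 other thiol and peroxide enzymes that were counted, out of 34 listed, 3 were higher and 3 lower, or 18.2% called against 14.0% of all genes. *Idh2*, the mitochondrial isocitrate dehydrogenase that makes NADPH, was the largest, with a WT mean of 150 CPM and a KL-/- mean of 325 CPM (log2 fold change 1.12, SE 0.20, edgeR quasi-likelihood FDR = 0.00885), and it passed in all 15 alternative fits. *Nnt*, the transhydrogenase that also supplies mitochondrial NADPH, was higher by a log2 fold change of 0.74 (FDR = 0.0357) and passed in 8 of 15 alternative fits. *Pon3*, a paraoxonase, and *Selm*, a selenoprotein of the endoplasmic reticulum, were lower, with log2 fold changes of -0.59 (FDR = 0.0291) and -0.53 (FDR = 0.0227), and each passed in 9 of 15 alternative fits. The other 2 were *Selk*, a selenoprotein of the endoplasmic reticulum, higher by a log2 fold change of 0.32 (edgeR quasi-likelihood FDR = 0.0204), and *Msrb2*, a mitochondrial methionine sulfoxide reductase, lower at -0.48 (FDR = 0.0199).

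Of 9 counted genes for superoxide-producing oxidases and their subunits, 2 were lower and 0 higher, or 22.2% called against 14.0% of all genes. Over all genes, 6.67% were lower and 7.35% higher. *Duox1* had a WT mean of 1.02 CPM and a KL-/- mean of 0.225 CPM (log2 fold change -2.19, edgeR quasi-likelihood FDR = 0.00618), close to the level of single counts in the latter. *Rac2*, a subunit of the phagocyte oxidase, had a log2 fold change of -1.18 (FDR = 0.0483) and passed in 7 of 15 alternative fits. The macrophage sum averaged 99.1 CPM in WT and 65.1 CPM in KL-/- libraries, with overlapping ranges of 67.9 to 143 and 48.3 to 84.1 CPM. Its part in the change of *Rac2* was not tested.

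Per length, the members covered a wide range of levels in both genotypes. *Txnip*, *Mgst3*, *Prdx5* and *Sod1* led, with means over 8 libraries of 233, 206, 201 and 188 RPKM (CPM per kilobase of exons), and *Gss*, *Sod3* and *Hmox1* were lowest at 2.74, 3.13 and 3.64. The ranges of *Mgst3*, *Prdx5* and *Sod1* over the 8 libraries overlapped each other, and that of *Txnip*, 85.2 to 425, covered all of them. *Mgst1* fell from 37.8 to 12.2 on this scale, and *Gstm1* rose from 76.2 to 115.

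**Figure D5:**
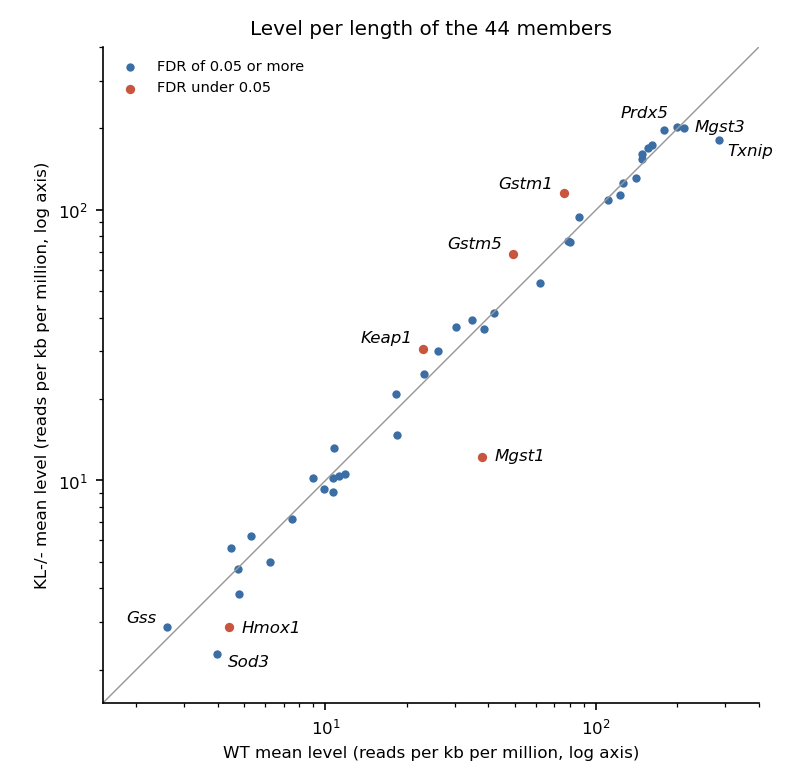
Each point is 1 of the 44 members, with the mean level over 4 WT libraries on the x axis and over 4 KL-/- libraries on the y axis, both in RPKM on log axes. The grey line marks equal levels, and red points have an FDR under 0.05, of which *Mgst1* lies farthest from the line at 37.8 against 12.2.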

How the data were processed

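RNA from whole TA muscles of 4 WT and 4 KL-/- mice was sequenced. The labels name a total RNA library and the study's methods mRNA sequencing. The labels name STAR, featureCounts and mm10, and the authors deposited raw counts for 12551 genes. Annotation release and strand setting are not given in the sources used here. Besides the overlaps named above, exons of *Prdx2*, *Txnrd2*, *Txnip* and *Hmox2* overlap genes on the other strand. Counts were tested with edgeR 4.0.16 (R 4.3.3): TMM factors, a quasi-likelihood fit on genotype and Benjamini-Hochberg adjustment over all 12551 genes, since the low-count filter removed none. Calls had an FDR under 0.05. CPM values are TMM-scaled. Standard errors were the log2 fold change divided by the root of F. The fit was tested on simulated data. Alternatives included DESeq2 1.42.0, other scalings, count filters and leaving out each library. The alternative without the low-count filter is the main fit again and adds no support. Named genes were those past the threshold, those without overlap between genotypes and, in a role without either, the most abundant per length, and up to 4 of each pathway list with the largest changes past the threshold. Others were named after their values were seen. The 44 members and all lists were chosen with earlier results of these data known. Replicates were single mice. Depth was 20860262 to 29273758 counts, so 3 counts equalled 0.102 to 0.144 CPM, a limit that covers counting error only.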

Additional observations from a re-analysis of the deposited data

Results flagged for a closer look

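3 members had 1 library far from the other 3 of its genotype by Dixon's test, among 88 groups of 4 libraries tested, where chance gives about 1 in 20. *Gpx1* was at 50.4 CPM in KL-/- replicate 2 and at 41.0 to 42.0 CPM in the other KL-/- libraries. *Gpx7* was at 4.81 CPM in WT replicate 4 and at 6.0 to 6.25 CPM in the other WT libraries. *Glrx3* was at 9.59 CPM in WT replicate 1 and at 8.36 to 8.51 CPM in the other WT libraries. None of the 3 genes passed the test between genotypes.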

How the results depend on the processing

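*Gstm1*, *Gstm5*, *Mgst1* and *Keap1* kept their direction and their FDR under 0.05 in all 15 alternative fits, among which the fit without the low-count filter repeats the main fit. With library totals, 11 members passed, 8 of them lower, as did 492 higher and 2127 lower genes over all, and the median of the members was -0.13. DESeq2 called 8 members, 4 of them lower, adding *Glrx*, *Txn1* and *Sod3*, and 2456 genes against 1759. Superoxide-producing oxidases held 1 call with the older edgeR 3 test and with at least 10 counts in every library. Same-numbered WT and KL-/- libraries did not deviate together (correlations -0.15, 0.18, -0.37 and 0.017). Not every library correlated best with its own number, so the numbers were not taken as pairs. With 4 libraries of each genotype, these values cannot exclude that some mice are paired. A fit with the replicate number as a block called 671 genes, 348 higher and 323 lower. It called 4 members (1 lower, *Mgst1*), 2 other NRF2-responsive genes, 0 partners and 1 oxidase. *Hmox1* did not pass in that fit (FDR = 0.0865 from edgeR's quasi-likelihood test). Leaving out 1 library gave 762 genes (without KL-/- replicate 3) to 2755 (without KL-/- replicate 2), with 404 to 1521 higher and 343 to 1234 lower, 4 to 7 members (3 to 5 higher, 1 to 2 lower), 4 to 8 other NRF2-responsive genes, 0 to 3 partners, 1 to 9 thiol and peroxide enzymes, 1 to 3 oxidases and a median of the members from -0.028 to 0.059. Signs turned only for members that did not pass: *Gclc* with RLE factors (0.00043), *Prdx2* (-0.12), *Prdx5* (-0.092), *Txn2* (-0.062), *Hmox2* (-0.024) and *Nfe2l1* (-0.012) with library totals, and *Prdx2* with at least 10 counts (-0.0018) and with the block (-0.00053). Leaving out 1 library also turned *Sod2* (-0.062 to 0.020), *Gpx1* (-0.079 to 0.040), *Gpx3* (-0.18 to 0.096), *Prdx2* (-0.048 to 0.048), *Prdx5* (-0.042 to 0.11), *Srxn1* (-0.27 to 0.10), *Glrx5* (-0.095 to 0.053), *Gclc* (-0.17 to 0.080) and *Mgst3* (-0.18 to 0.060). The cause of these changes was not tested.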
